A study of Saccharomyces cerevisiae with 4 samples.

Results

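The histone genes of budding yeast examined here are HTA1 and HTA2 (histone H2A), HTB1 and HTB2 (H2B), HHT1 and HHT2 (H3), HHF1 and HHF2 (H4), HHO1 (the linker histone H1) and HTZ1 (the variant H2A.Z). They were taken by name, 10 of the 6002 protein-coding genes in the gene table, and Spo11 oligos were counted by their 5′ ends in the gap upstream of each gene (5′ gap), in its reading frame and in the gap downstream of it (3′ gap). The 8 core histone genes lie in 4 divergent pairs, and each pair shares 1 upstream gap. With the upstream gaps of HHO1 and HTZ1 this made 6 gaps, each counted once.

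Spo11 cuts DNA in meiosis to start recombination and leaves bound to a short oligo, whose 5′ end marks the cut. In budding yeast most cuts fall in promoters that are free of nucleosomes. Histones themselves build the nucleosomes: H2A, H2B, H3 and H4 form the core particle, H1 binds the linker DNA, and H2A.Z takes the place of H2A in nucleosomes beside promoters. Core histone genes are transcribed in pairs from 1 central region with activating sites, mostly in S phase, and the HIR repressor complex acts at 3 of the pairs, all but HTA2-HTB2.

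Oligos came from SK1 diploids homozygous for SPO11-HA3-His6::kanMX (a tagged Spo11), and also for nuc1∆::LEU2, arg4-Nsp, his4X::LEU2, leu2::hisG, ura3, lys2 and ho::LYS2, none of which is at a histone gene. Cells were taken at 4 h of sporulation, after 14 h of presporulation growth, and the labels give a temperature of 30 °C. There were 3 technical datasets of culture 1 and 1 dataset of culture 2, and the files pool all 4. Read names show 4 sequencing runs of 395612 to 587674 reads (2024944 in all), which no label ties to a dataset. Values are therefore given per run and pooled, without a test between cultures, and intervals (95%) cover counting error only. Positions follow the deposited S288C map, whose build is not given in the sources used here, so distances from genes are approximate.

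Breaks at histone genes lay in the upstream gaps and hardly at all in the reading frames. The 6 upstream gaps held 2530 oligos, 74.3% of the 3403 found in all regions of the 10 genes (95% Wilson interval 72.9 to 75.8%). The 10 reading frames held 57 (1.67%, 1.30 to 2.16%), and the 10 downstream gaps 816 (24.0%, 22.6 to 25.4%). Per length, upstream gaps had 260 RPM per kb (RPM is oligos per 1000000 mapped oligos), reading frames 6.67 and downstream gaps 79.8. The density was 38.9-fold higher in upstream gaps than in reading frames (95% interval 30.0 to 51.6), against 25.9-fold for all divergent gaps and all reading frames of 15 chromosomes. The core genes alone gave 110-fold (62.5 to 213), but they exist as similar copies, and loss of reads matching both copies was not tested. HHO1 had 809 RPM per kb upstream and 25.4 in its frame, and HTZ1 had 112 and 6.10. With every position and strand taken once, upstream gaps held 65.0%.

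**Figure D1:**
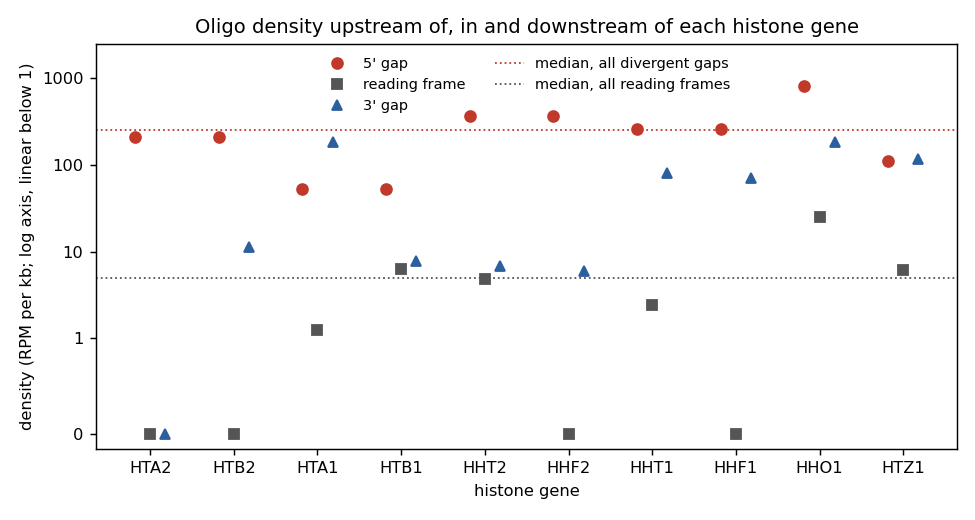
Oligo density (RPM per kb, log axis that is linear below 1) upstream of, in and downstream of each histone gene, all runs pooled. Genes of a pair share the upstream value. The frames of HTA2, HTB2, HHF1 and HHF2 sit at 0, and upstream density is lowest at HTA1 and HTB1 (52.6) and highest at HHO1 (809).

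Every upstream gap held a hotspot, a segment where smoothed oligos reached 2.3 times the genome mean. The same was true of 52.1% of all 5552 gaps, of 78.6% of 1447 divergent gaps and, among divergent gaps of 500 to 1000 bp, of 88.2% of 508; 5 of the 6 histone gaps are in that range of lengths. Per gene, 10 of 10 histone genes had a hotspot upstream, and so had 71.0% of 5565 genes. A count of 6 of 6 is near this background and says nothing particular of histone gaps. The call at HTA1-HTB1 rests on single runs, as given below. The median histone gap had 161 RPM, beside 139 RPM over all divergent gaps and 204 RPM over those of 500 to 1000 bp. In density the median was 235 RPM per kb, beside 255 and 313 in the same backgrounds.

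The order of the gaps by level was HHO1, HHT2-HHF2, HHT1-HHF1, HTZ1, HTA2-HTB2 and HTA1-HTB1, an 11.4-fold range (95% interval 9.14 to 14.4). HHO1 was highest and HTA1-HTB1 lowest in each run taken alone. With every position and strand taken once the range shrank to 3.88-fold. The 3 gaps in the middle were not separated from one another by their counting intervals: HHT1-HHF1 had 1.11 times the oligos of HTZ1 (0.946 to 1.30), and HTZ1 had 1.04 times those of HTA2-HTB2 (0.887 to 1.23).

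**Figure D2:**
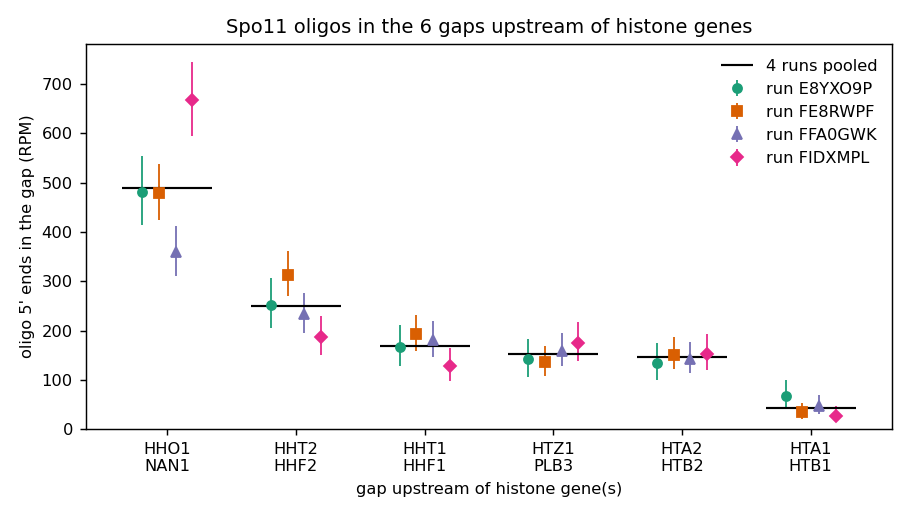
Oligo 5′ ends (RPM) in the 6 gaps upstream of histone genes, in falling order of the pooled level. Symbols are the 4 runs with 95% Poisson intervals and the black line is the pooled level, from 489 RPM at HHO1 to 43.0 at HTA1-HTB1. In RPM the runs lie farthest apart at HHO1 (358 to 667), and relative to their level at HTA1-HTB1 (27.3 to 68.2).

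The 2 pairs of H2A and H2B genes differed in upstream breaks. The HTA2-HTB2 gap (YBL003C and YBL002W, chromosome II, 699 bp) held 296 oligos, 146 RPM (130 to 164). Its levels were 134 RPM in run E8YXO9P, 151 in FE8RWPF, 143 in FFA0GWK and 154 in FIDXMPL, a narrow range. The HTA1-HTB1 gap (YDR225W and YDR224C, chromosome IV, 817 bp) held 87 oligos, 43.0 RPM (34.4 to 53.0). Its levels were 68.2 RPM in E8YXO9P, 34.0 in FE8RWPF, 47.7 in FFA0GWK and 27.3 in FIDXMPL. HTA2-HTB2 thus had 3.40 times the oligos of HTA1-HTB1 (2.67 to 4.37), was the higher in 4 of 4 runs (1.96 to 5.62 times), and the levels of the pairs over runs did not overlap. By positions and strands taken once it had 2.04 times as many. Among 1447 divergent gaps, HTA2-HTB2 stood at the 51st percentile of RPM and HTA1-HTB1 at the 23rd. Among those of 500 to 1000 bp, nearer in length, they stood at the 35th and the 11th.

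The hotspot between HTA2 and HTB2 (II, 236000 to 236338) was 339 bp wide and held 286 oligos, rank 1578 of 3626. That between HTA1 and HTB1 (IV, 915068 to 915097) was only 30 bp wide and held 34 oligos (95% Poisson interval 23.5 to 47.5), rank 3560. It held 39.1% of the gap's oligos, and the remainder was spread too thinly to be called. Without run E8YXO9P, or without FFA0GWK, no hotspot was called between HTA1 and HTB1, nor in FE8RWPF or FIDXMPL alone. Of 817 bp, 48 distinct ends were used, the commonest at position 915094 on the top strand with 12 oligos (13.8%).

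The 2 pairs of H3 and H4 genes also differed, though less. The HHT2-HHF2 gap (YNL031C and YNL030W, chromosome XIV, 676 bp) held 505 oligos, 249 RPM (228 to 272). Its levels were 253 RPM in E8YXO9P, 313 in FE8RWPF, 233 in FFA0GWK and 187 in FIDXMPL. The HHT1-HHF1 gap (YBR010W and YBR009C, chromosome II, 646 bp) held 342 oligos, 169 RPM (151 to 188). Its levels were 167 RPM in E8YXO9P, 192 in FE8RWPF, 180 in FFA0GWK and 128 in FIDXMPL. HHT2-HHF2 had 1.48 times the oligos of HHT1-HHF1 (1.28 to 1.70) and was the higher in 4 of 4 runs (1.29 to 1.63 times), although the ranges over runs overlapped. The 2 pairs encode the same H3 and H4 proteins. By RPM, HHT2-HHF2 and HHT1-HHF1 stood at the 68th and the 56th percentile of divergent gaps. Among divergent gaps of 500 to 1000 bp they stood at the 56th and the 42nd. Levels of the lower H3-H4 pair and the higher H2A-H2B pair were not separated by counting error, with HHT1-HHF1 at 1.16 times HTA2-HTB2 (0.986 to 1.35).

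The hotspot between HHT2 and HHF2 (XIV, 576164 to 576635) was 472 bp wide, held 495 oligos and ranked 984. The one between HHT1 and HHF1 (II, 255863 to 256227) was 365 bp wide, held 307 and ranked 1499. No single end dominated either: the commonest made up 5.74% of oligos at HHT2-HHF2 (position 576226, bottom strand, 29 oligos) and 9.94% at HHT1-HHF1 (position 256122, bottom strand, 34 oligos).

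HHO1 had the strongest upstream breaks of the 10 genes. Its gap (YPL127C, chromosome XVI, 605 bp), shared with NAN1, which acts in ribosomal RNA processing, held 991 oligos, 489 RPM (459 to 521). That is 1.96 times HHT2-HHF2 (1.76 to 2.19), higher in 4 of 4 runs, and the 84th percentile of divergent gaps. Among divergent gaps of 500 to 1000 bp it was the 76th percentile. The 2 gaps used similar numbers of distinct ends, 186 at HHO1 and 177 at HHT2-HHF2, 1.05 times, so HHO1 led by more oligos per end (5.33 and 2.85). Levels were 480 RPM in E8YXO9P, 478 in FE8RWPF, 358 in FFA0GWK and 667 in FIDXMPL. The hotspot (XVI, 309679 to 310171) was 493 bp wide, held 990 oligos and ranked 446. The commonest end, at position 309816 on the bottom strand, had 116 oligos, 11.7% of the gap.

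HTZ1 had a wide but thinly cut gap. It spans 1365 bp (YOL012C, chromosome XV) to PLB3, a phospholipase B gene, and held 309 oligos, 153 RPM (136 to 171), with 142 in E8YXO9P, 136 in FE8RWPF, 159 in FFA0GWK and 175 in FIDXMPL. By RPM this was the 53rd percentile of divergent gaps. Per length it was 112 RPM per kb, the 25th percentile of divergent gaps by density, beside the 14th for HTA1-HTB1. The HTZ1 gap was the only one of the 6 gaps with more than 1 hotspot. The nearer to HTZ1 (XV, 304383 to 304569) held 120 oligos, and the farther (XV, 304802 to 304908) held 76. Together they took 63.4% of the gap's oligos. The ends used 150 distinct positions and strands, of which the commonest had 12 oligos (3.88%).

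Run FIDXMPL differed in level from the other runs at some of these gaps, mostly within the span common among divergent gaps. Its level relative to the other 3 runs pooled was 1.53 times at HHO1 (1.34 to 1.75), 0.697 times at HHT2-HHF2 (0.548 to 0.879), 0.708 at HHT1-HHF1 (0.527 to 0.936) and 0.573 at HTA1-HTB1 (0.291 to 1.04). Over 1246 divergent gaps with 50 or more oligos the median of this ratio was 1.08 and the 10th to 90th percentile 0.682 to 1.67, so only HTA1-HTB1, at the 4th percentile, lay outside that span. Without FIDXMPL, HHO1 had 435 RPM and HHT2-HHF2 268. HHO1 was also highest and HTA1-HTB1 lowest without this run.

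In the gaps of HTA2-HTB2, HHT2-HHF2 and HHO1 the ends fell into 2 clusters with a poorly cut stretch between. Distances are counted upstream from the start of the H2A or H3 gene, or of HHO1 or HTZ1, in bins of 50 bp (400 to 450 bp means beyond 400 and up to 450). Between HTA2 and HTB2 the best bins were 400 to 450 bp from HTA2 with 75 oligos and 250 to 300 bp with 59, against 6 in the lowest bin between (350 to 400 bp). Between HHT2 and HHF2 they were 450 to 500 bp from HHT2 with 100 oligos and 150 to 200 bp with 97, against 7 at 350 to 400 bp. Upstream of HHO1 they were 150 to 200 bp from the gene with 332 oligos and 450 to 500 bp with 194, against 19 at 350 to 400 bp. The lowest inner bin was thus 0.102, 0.0722 and 0.0979 times the second-best bin in these gaps. The median of this ratio over 481 divergent gaps of 500 to 1000 bp with 50 or more oligos was 0.111. A stretch this poor is therefore common.

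The pattern was less marked or differently placed in the others. Between HHT1 and HHF1 the best bin, 150 to 200 bp from HHT1, had 87 oligos and the second, 400 to 450 bp, had 44, with 15 in the lowest bin between (0.341 times). Upstream of HTZ1 the best bins were 850 to 900 bp (55 oligos) and 500 to 550 bp (46), with 0 at 650 to 700 bp, which allows up to 3. Between HTA1 and HTB1 the 25 oligos at 400 to 450 bp from HTA1 led, and the best bin farther off (250 to 300 bp) had 7, little above the 6 between. A lowest bin at or under 0.5 times the second-best was thus found in 5 of 6 histone gaps, near the 77.3% of 481 divergent gaps of 500 to 1000 bp with 50 or more oligos, so the clusters are not particular to histone genes. The HTZ1 gap counted here is 1365 bp long, outside that range of lengths.

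**Figure D3:**
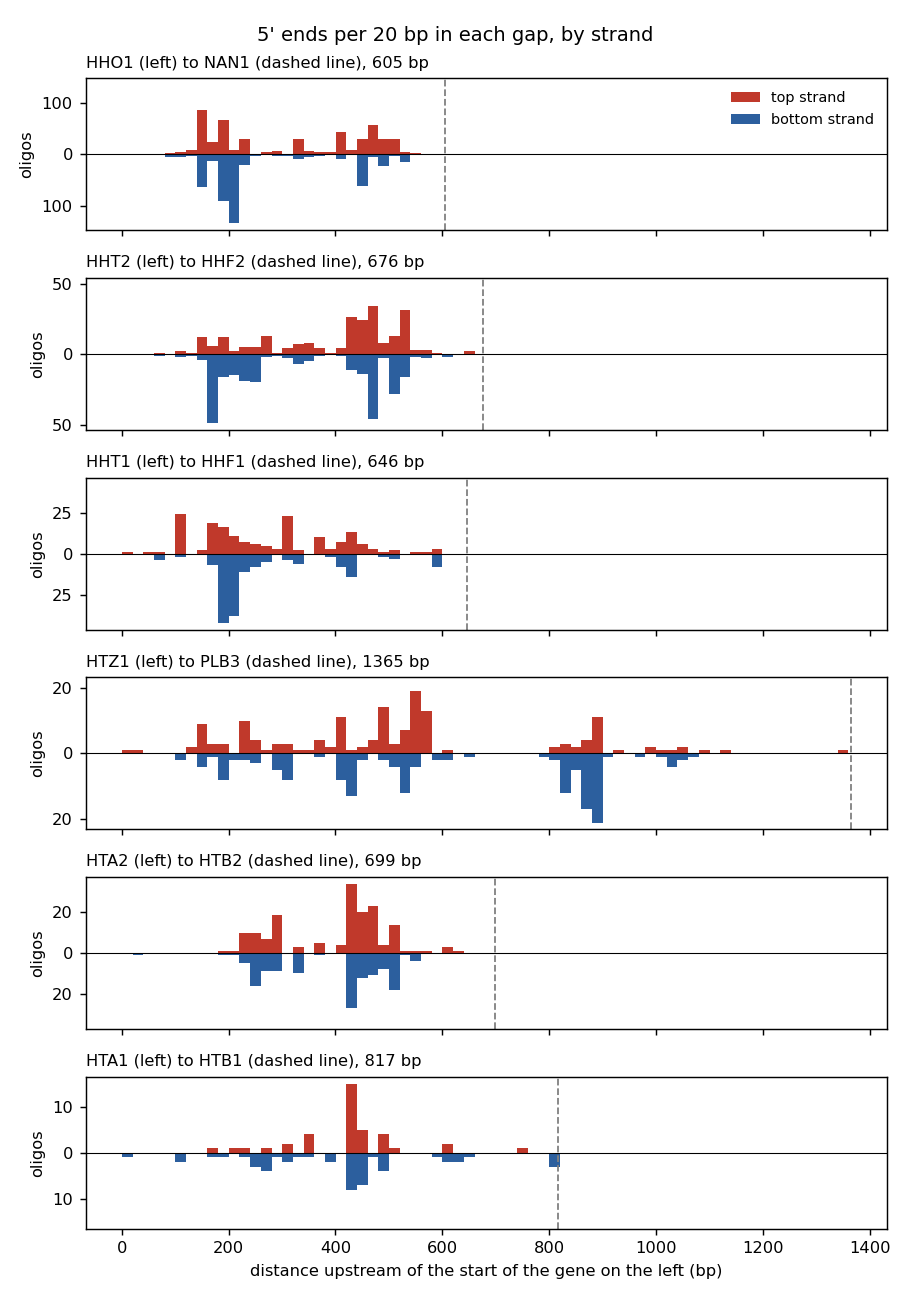
Oligo 5′ ends per 20 bp (top strand above, bottom strand below the line) against distance upstream of the start of the first-named gene, for the 6 gaps in falling order of level; the dashed line is the start of the other gene. Vertical scales differ. HHO1, HHT2-HHF2 and HTA2-HTB2 show 2 clusters, with 332, 97 and 59 oligos in the best 50 bp bin of the cluster nearer the gene on the left.

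Ends leaned to one side of the midpoint, with an interval that excludes 50%, in all 6 gaps, and in 85.4% of 481 divergent gaps of 500 to 1000 bp with 50 or more oligos, so such a lean is common. The HTZ1 gap, at 1365 bp, is longer than these. Between HHT1 and HHF1, 72.2% of oligos lay on the side of the midpoint nearer HHT1 (95% Wilson interval 67.2 to 76.7%). The other core gaps leaned away from the H2A or H3 gene, with 41.6% on the HHT2 side (37.4 to 45.9%), 34.8% on the HTA2 side (29.6 to 40.4%) and 34.5% on the HTA1 side (25.3 to 44.9%). Leans were not recomputed with the gene table moved. Around HTA1-HTB1, genes held the fewest oligos at a shift of −85 bp, and the median end lay 436 bp from HTA1. In a gap of 817 bp, the side of that lean therefore depends on the placement of genes. Upstream of HHO1 60.2% lay on its side (57.2 to 63.2%), and upstream of HTZ1 67.6% (62.2 to 72.6%). The 100 bp next to either start codon was poor in ends: together these held 0.971% of oligos at HTZ1, 1.39% at HHT2-HHF2, 1.69% at HTA2-HTB2, 5.75% at HTA1-HTB1, 6.46% at HHO1 and 7.02% at HHT1-HHF1. The median over 481 divergent gaps of 500 to 1000 bp was 4.97%, with a 10th to 90th percentile of 0.592 to 29.8%.

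Strands were near balance. The top-strand share was 54.7% at HTA2-HTB2 (49.0 to 60.3%), 43.7% at HTA1-HTB1 (33.7 to 54.1%), 46.1% at HHT2-HHF2 (41.8 to 50.5%), within an interval of 44.7 to 55.3% at HHT1-HHF1, 50.6% at HHO1 and 50.2% at HTZ1, each with 50% inside its interval. Within the HTZ1 gap the hotspots were uneven in opposite directions, with 61.7% on the top strand in the nearer (52.7 to 69.9%) and 26.3% in the farther (17.7 to 37.2%). With each position counted once, ends on opposite strands lay most often 2 positions apart: 108 pairs of positions had this offset, against a median of 59 over offsets of −50 to 50. With oligos multiplied in place of positions, an offset of 29 came first (5.59 times the median) and 2 reached 4.56 times. Only 53 pairs of positions had the offset of 29, below the median of 59 pairs. Oligos of 25 to 32 nt made up 60.3% in the 6 histone gaps together (58.4 to 62.2%) and 59.9% over all reads, but single gaps went both ways. HTA2-HTB2 had 68.2% (62.7 to 73.3%), above the share of all reads, whereas HHT2-HHF2 had 55.6% (51.3 to 59.9%), HTZ1 54.7% (49.1 to 60.2%) and HTA1-HTB1 51.7% (41.4 to 61.9%), lower values whose intervals reach up to that share.

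The reading frames of the core histone genes were nearly free of breaks. HTA2, HTB2, HHF1 and HHF2 had 0 oligos each, which allows up to 3 (3.71, 3.74 and, for the shorter H4 frames, 4.75 RPM per kb). HTA1 had 1, HHT1 2, HHT2 4 and HTB1 5. The 8 core frames together held 12 oligos, 1.95 RPM per kb, and the 4 core upstream gaps 1230, 214 RPM per kb, a density 110-fold higher (62.5 to 213). In all, 6 of the 10 histone frames had 3 or fewer oligos, beside 37.0% of 857 frames of 500 bp or less and 13.4% of 5684 frames of any length. The HHO1 frame, at 777 bp, is longer than 500 bp. Core histone genes exist as similar copies, reads that match both cannot map uniquely, and their part in these low counts was not tested.

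HTZ1, which has no second copy, had 5 oligos in a frame of 405 bp (6.10 RPM per kb). HHO1 had 40 in 777 bp (25.4 RPM per kb, 95% Poisson interval 28.6 to 54.5 oligos), the 87th percentile of all frames. Most lay far from the promoter: 34 of them lay 350 to 600 bp into the frame, with 13 at 450 to 500 bp, and 2 in the first 200 bp. They came from each run, 10.1 RPM in E8YXO9P, 23.8 in FE8RWPF, 17.7 in FFA0GWK and 25.2 in FIDXMPL. No hotspot was called in any histone frame, beside 5.12% of all frames with one.

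Downstream gaps differed by what lay on their far side. The 6 convergent ones, between 2 gene ends, held 85 oligos, 19.3 RPM per kb, and no hotspot, beside 5.16% of 1434 convergent gaps with one. The median density of convergent gaps was 6.32 RPM per kb. That downstream of HTA2, toward UTP20, held 0, and those of HHF2 (toward KTR5), HHT2 (SIW14), HTB2 (ECM15) and HTB1 (CRF1) held 2, 4, 6 and 13. By RPM, those of HTB1, HTB2 and HHT2 stood at the 81st, 66th and 53rd percentile of convergent gaps, and that of HHF2 at the 34th. The highest was that of HHT1, at the 93rd percentile. There 60 oligos, 29.6 RPM (22.7 to 37.4 in the runs), lay toward IPP1, the inorganic pyrophosphatase. Of these, 19 lay within 100 bp of the HHT1 stop.

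The 4 tandem ones are also promoter gaps of the next gene, and each held a hotspot, beside 62.9% of 2671 tandem gaps. HHO1 and TBF1, which encodes a telomere-repeat binding protein, flanked 227 oligos (112 RPM), with a hotspot at XVI 308301 to 308562. HTA1 and ADK1, adenylate kinase, flanked 207 (102 RPM; IV, 916163 to 916408), more than the HTA1-HTB1 promoter gap itself held. HHF1 and FLR1, a drug exporter, flanked 167 (82.5 RPM; II, 254959 to 255109), with runs from 52.8 to 160 RPM. HTZ1 and HRD1, a ubiquitin ligase of the endoplasmic reticulum, flanked 130 (64.2 RPM; XV, 303265 to 303398). At ADK1 and TBF1 the summits lay 157 and 152 bp from the neighbour, on its side of the gap. Between HHF1 and FLR1 the summit was nearer the histone gene, 331 bp from HHF1 and 833 bp from FLR1. Between HTZ1 and HRD1 it lay near the middle, 245 bp from HTZ1 and 299 bp from HRD1. Genes around HTZ1 held the fewest oligos at a shift of 80 bp, so which of these genes is nearer is not settled.

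Within 10 kb on either side, HHO1 was the strongest gap and held 50.4% of the 20 kb window's oligos. HHT2-HHF2 held 28.5%, HTZ1 24.4% and HTA2-HTB2 21.7%, each number 2 in its window. HHT1-HHF1 held 9.67% as number 3 of 8, and the gap between DSF2 and FLR1 led there with 824 RPM. HTA1-HTB1 held 4.46% and was number 5 of 9 gaps, and its hotspot was the weakest of 8. The windows themselves ranged from 31.3 RPM per kb at HTZ1 to 87.4 at HHT1-HHF1, with 48.1 around HTA1-HTB1 and 48.5 around HHO1.

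**Figure D4:**
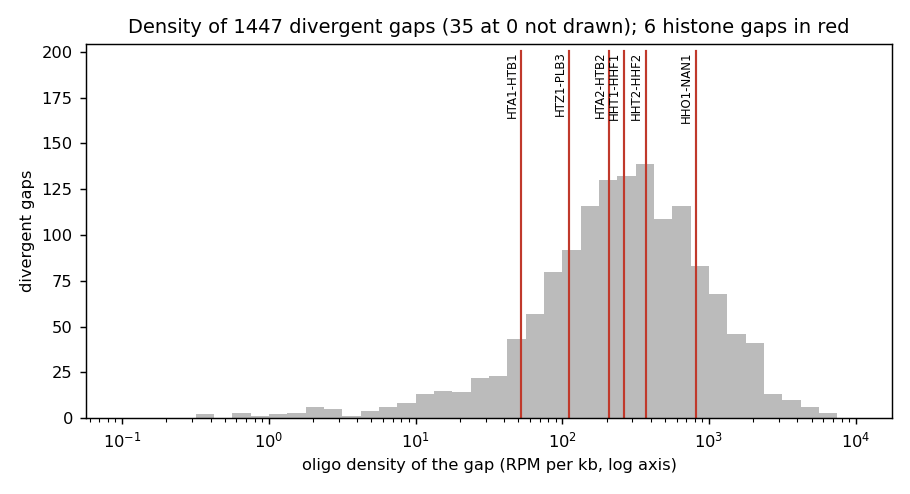
Oligo density (RPM per kb, log axis) of 1447 divergent gaps in grey, of which 35 at 0 are not drawn, with the 6 histone gaps as red lines. They span the bulk of the distribution, from 52.6 at HTA1-HTB1 to 809 at HHO1, with 3 above the median of 255.

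Genes that regulate, carry or place histones were listed alongside, 28 in all, of which NAP1 lies on chromosome XI, where genes were not placed on the map. Of the other 27, 23 had a hotspot in the upstream gap (85.2%, 95% Wilson interval 67.5 to 94.1%), beside 71.0% of all genes, with a median of 81.5 RPM beside 94.3. The highest was ASF1, a chaperone of H3 and H4 (656 RPM, 446 to 769 in the runs), in a gap shared with NCA3. RTT106, a chaperone that takes part in repressing histone genes, had 329 RPM (275 to 395), HIF1, a chaperone bound to the Hat1 acetyltransferase, 308 (283 to 326), and SWR1, the ATPase that places H2A.Z, 282 (233 to 332). Those without a hotspot were SPT6, which reassembles nucleosomes behind RNA polymerase (16.8 RPM), HAT1, which acetylates free H4 (8.40), SWI6, a cofactor of S-phase transcription (8.40), and HIR1, a subunit of the HIR repressor, whose upstream gap is 4 bp long and held 0, which allows up to 3 oligos.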

How the data were processed

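Spo11 oligos of 4 pooled datasets were analysed. Per the file headers, the authors mapped reads uniquely to S288C and deposited a list with positions, strand and 1 mapping score per read, and a curated map of raw hit counts per position. For aligner, build and curation the labels and headers name nothing further. The score was not used, and the map served as an alternative. Runs were read from the first 7 characters of read names. The 5′ end is the listed start (top strand) or end (bottom strand).

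Genes and gaps came from the R64 gene table, used on 15 chromosomes without conversion. In 50 kb windows around the 6 gaps, genes held the fewest oligos at shifts of −85 to 80 bp, so the table was also moved by 25 and 100 bp each way. No genome sequence was used here, so no sequences are shown.

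Hotspots were called from ends smoothed over 201 bp (Hann window), at or above 2.3 times the mean over 12 Mb, merged at gaps of 200 bp or less, at least 25 bp wide, with at least 10 RPM and the summit in the gap. Intervals are Wilson, exact Poisson or exact conditional at 95% and the floor for a count of 0 is 3; PCR copies were not marked, so both cover counting error only. No set tests or p-values were computed, since the files hold no replicates. The members, lists and alternatives were chosen with earlier results of these data known. All 10 members and their neighbours are named, and of the regulators the 4 highest and those without a hotspot. Python 3.11.15, numpy 2.4.6, pandas 2.3.3, scipy 1.17.1 and matplotlib 3.10.9 were used.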

Additional observations from a re-analysis of the deposited data

How the results depend on the processing

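Hotspots were called in 5 or 6 of the 6 upstream gaps under 22 alternatives. The 8 with 5 all lacked the one between HTA1 and HTB1: without run E8YXO9P or FFA0GWK, FE8RWPF or FIDXMPL alone, reads of 25 to 32 nt, the bottom strand, a threshold of 4 times the mean and the wider smoothing window. The share of oligos in upstream gaps moved to 65.0% with each position and strand counted once, 76.9% in FE8RWPF alone, 71.3% in FFA0GWK alone, 77.2% on the top strand and 71.8% on the bottom strand; leaving out a run gave 73.3 to 75.4%. The median level moved to 272 RPM with each position and strand counted once, because the total then counts distinct ends, and ranged from 157 to 164 RPM with a run left out. Of 102 values of single gaps, 20 left their counting interval. HHO1 stayed highest and HTA1-HTB1 lowest under all 17 alternatives that gave gap levels. The ratio of HTA2-HTB2 to HTA1-HTB1 ranged from 1.96 to 5.62, and that of HHT2-HHF2 to HHT1-HHF1 from 1.29 to 1.63. No paired analysis was possible because the files pool the datasets and carry no replicate numbers. Depth limits the gap between HTA1 and HTB1, with 13 to 27 oligos per run, and the reading frames.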

Other observations

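Over 26 histone regions the curated map held 3399 hits and the read list 3403, with equal totals in 21 of them. At most 1 hit stood only in the map and at most 2 reads only in the list in any region. These counts do not cover every difference. The upstream gap of HHO1 held 990 hits and 991 reads, with 0 in either count.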
